A study of Mus musculus with 34 samples.

Results

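Type I interferon-stimulated genes were followed in the cortex of mice that carry an amyloid model, a Down syndrome model, both or neither, with and without a Janus kinase inhibitor. The list held 41 genes, taken by gene symbol, out of 55385 genes in the count table, and all 41 were found there. A member was kept when its mean over all libraries was at least 0.3 CPM, a gene's counts scaled to a common library total, and 36 members passed. Mx1 and Mx2 lie in the duplicated segment of the Down syndrome model and are described apart, which left 35 members for counts and for a summary score. The members below the minimum were Zbp1 at 0.28 CPM, Oas1b at 0.26, Oas2 at 0.29, Oas3 at 0.08 and Mx1 at 0.28, while Oasl1 at 0.36 and Ddx60 at 0.41 lay just above it. The rule for membership uses gene names and the mean level, but the list was drawn up with earlier results of these data known, and a gene near the minimum can pass it through the group in which it is high.

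Poly-A RNA came from the cortex of 34 mice aged 6 months, 1 library per mouse. Wild-type mice were C57BL/6J. Dp16 mice carry an extra copy of a stretch of mouse chromosome 16 whose genes match a large share of those on human chromosome 21. 5xFAD mice express mutant human genes of familial Alzheimer's disease, APP among them, from transgenes driven by Thy1 sequences, which act mainly in neurons, and 5xFAD-Dp16 mice carry both lesions. Each genotype received tofacitinib at 15 mg/kg daily by oral gavage for 1 month or, as sham, the 0.5% methylcellulose vehicle on the same schedule. Wild-type held 5 sham and 5 tofacitinib mice, Dp16 3 and 5, 5xFAD 4 and 5, and 5xFAD-Dp16 3 and 4. Females numbered 2 and 2 in wild-type, 2 and 3 in Dp16, 1 and 2 in 5xFAD, and 2 and 2 in 5xFAD-Dp16. Below, the values of a group are given mouse by mouse with its females first.

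Type I interferons are cytokines of the antiviral defence. They bind a receptor made of Ifnar1 and Ifnar2, whose Janus kinases Jak1 and Tyk2 phosphorylate transcription factors such as Stat2. With Irf9 these form a complex that binds the interferon-stimulated response element in promoters and switches on a broad set of genes. The gene products sense foreign RNA, block its translation, degrade it, trap virus particles at the membrane, and either amplify or dampen the signal. In brain, microglia, astrocytes, endothelium and neurons can all respond, and interferon-responsive microglia are known around amyloid plaques. Tofacitinib inhibits Janus kinases. Ifnar1 and Ifnar2 lie in the segment that Dp16 mice carry in an extra copy.

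The response element was searched in promoters as GAAA, any 2 bases and GAAA again on either strand (TTTC, any 2 bases and TTTC on the other), within 250 bases before each RefSeq start site of build GRCm38.p6. RefSeq windows were found for 29 of the 41 members, and 10 of these held the element, or 34.5%, against 3.46% of all 27025 genes with a window. The element lay at a median of 81.5 bases before the start in the members. The promoters of the 9 scored members that held it are shown because they carry the sequence that defines the response. Each is read 5′ to 3′ on the strand of its gene, ends before the start site, and has the element in capitals, with overlapping elements as 1 longer run of capitals.
Ifit3, chr19:34583367-34583456, forward strand: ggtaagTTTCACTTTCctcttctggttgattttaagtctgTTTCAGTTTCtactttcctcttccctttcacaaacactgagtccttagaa
Ifit3b, chr19:34607763-34607852, forward strand: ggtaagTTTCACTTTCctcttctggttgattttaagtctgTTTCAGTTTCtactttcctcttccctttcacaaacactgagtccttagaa
Bst2, chr8:71537547-71537636, reverse strand: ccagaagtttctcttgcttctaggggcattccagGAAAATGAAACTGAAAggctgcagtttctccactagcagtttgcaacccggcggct
Ifit1, chr19:34640764-34640853, forward strand: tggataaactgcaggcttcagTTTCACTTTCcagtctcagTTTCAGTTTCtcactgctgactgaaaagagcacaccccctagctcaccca
Isg15, chr4:156200835-156200924, reverse strand: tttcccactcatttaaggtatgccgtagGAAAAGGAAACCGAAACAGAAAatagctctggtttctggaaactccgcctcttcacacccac
Trim30a, chr7:104465194-104465269, reverse strand: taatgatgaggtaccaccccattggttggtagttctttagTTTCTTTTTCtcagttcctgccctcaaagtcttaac
Rsad2, chr12:26456523-26456612, reverse strand: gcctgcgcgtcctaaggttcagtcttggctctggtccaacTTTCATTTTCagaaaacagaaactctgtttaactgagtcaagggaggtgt
Oas1a, chr5:120907526-120907579, reverse strand: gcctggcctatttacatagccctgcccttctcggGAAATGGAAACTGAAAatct
Ddx60, chr8:61928028-61928086, forward strand: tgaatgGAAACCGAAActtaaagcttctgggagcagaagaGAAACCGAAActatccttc
Ifit3 and Ifit3b had the same letters over the whole stretch. Isg15 held 3 overlapping elements and Bst2 2, while Trim30a and Rsad2 held 1 each. A match describes these letters and is not a measured binding site.

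The libraries held between 16029841 and 21388650 counted reads, and 17632 genes had enough counts to be tested. The labels could be checked in 34 libraries. Thy1, whose sequence the transgenes share, measured 1427 to 2570 CPM in the 16 mice labelled with 5xFAD and 823.2 to 951.2 in the other 18. Genes of the duplicated segment stood at 1.438 to 1.554 times the wild-type sham level in the 15 mice labelled with Dp16 and at 0.9313 to 1.086 in the other 19. In a principal component analysis, whose leading axes took up 13.8% and 7.29% of the variance, 2 libraries lay away from all others, wild-type sham 2 and 5xFAD tofacitinib 2. The latter had the lowest sum of cortical neuron markers, 592.7 CPM, and the highest of choroid plexus markers, 1476. Results that changed without these libraries are given beside their values.

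At baseline the members were expressed at low to moderate levels, with a few dominating. On the deposited RPKM scale, which corrects for gene length, Ifi27 was the highest at a mean of 23.2, followed by Lgals3bp at 9.50, Cmpk2 at 8.04, Ifit3 at 6.6, Bst2 at 5.44 and Isg15 at 4.29. Ifi27 encodes a mitochondrial interferon-induced protein, Lgals3bp a secreted galectin-binding glycoprotein, and Cmpk2 a mitochondrial nucleotide kinase whose gene neighbours Rsad2. In wild-type sham mice Ifi27 measured 18 ± 1.89 RPKM (SD, n = 5), Lgals3bp 5.49 ± 1.29 and Oasl2 0.613 ± 0.242. Most oligoadenylate synthetase genes were low, with Oas1a at a mean of 0.478 RPKM, Oasl1 at 0.162 and Oas3, the lowest of the 41, at 0.0177, while Oasl2 measured 1.48. Ddx60, at 0.0623 RPKM, was the lowest member that passed the minimum.

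The score, a library's mean log2 CPM over the 35 members, was lowest in wild-type mice, intermediate in either single lesion and highest in 5xFAD-Dp16. Among sham mice it was 1.63 ± 0.161 in wild-type (SD, n = 5), 2.04 ± 0.0950 in Dp16 (n = 3), 1.93 ± 0.314 in 5xFAD (n = 4) and 2.31 ± 0.376 in 5xFAD-Dp16 (n = 3). With tofacitinib it was 1.67 ± 0.233 in wild-type (n = 5), 1.97 ± 0.124 in Dp16 (n = 5), 1.97 ± 0.281 in 5xFAD (n = 5) and 2.41 ± 0.343 in 5xFAD-Dp16 (n = 4). Every Dp16 and 5xFAD-Dp16 sham mouse lay above every wild-type sham mouse, whereas 5xFAD sham mice overlapped wild-type. These means hold no term for sex, and the groups differ in it: the only 5xFAD sham female scored 2.26, above the 2 Dp16 sham females at 2.087 and 2.104, and the 3 5xFAD sham males 1.65 to 2.14. Dp16 and 5xFAD, neighbours in this order, did not separate beyond their spread. In bulk tissue fewer cells of a type and less RNA per cell cannot be told apart, here or below.

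**Figure D1:**
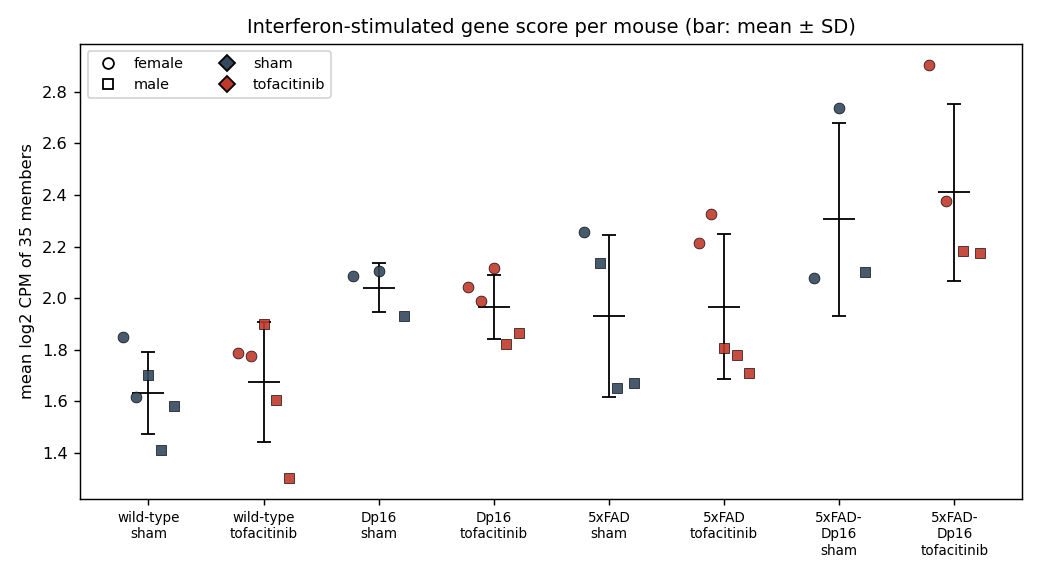
Score of each mouse, as mean log2 CPM of 35 interferon-stimulated genes, for the 8 groups. Circles are females, squares males, dark points sham and red points tofacitinib, with bars for mean ± SD, and the highest points, 2.91 and 2.74, are females of the 5xFAD-Dp16 groups.

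A few mice carried much of the spread. The highest score, 2.91, belonged to the first female of 5xFAD-Dp16 tofacitinib, which had the highest value of its group in 31 of 35 members and the highest of all 34 mice in 18. The next, 2.74, was the second female of 5xFAD-Dp16 sham, highest of its group in 29 members and of all mice in 9. The lowest scores were those of a wild-type tofacitinib male at 1.30 and a wild-type sham male at 1.41. The high values of these 2 females thus ran across most of the list.

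Gene by gene, 5xFAD-Dp16 was most often the highest group and wild-type the lowest. Among sham mice 5xFAD-Dp16 had the highest group mean in 27 of 35 members and wild-type the lowest in 20. Under tofacitinib 5xFAD-Dp16 was highest in 32 and wild-type lowest in 27. The full order, with wild-type below both single lesions and these below 5xFAD-Dp16, was found in 17 members among sham mice and 25 under tofacitinib. These are plain group means without a term for sex, which a single high mouse can move. The shares of all genes with such orders are not given here.

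**Figure D2:**
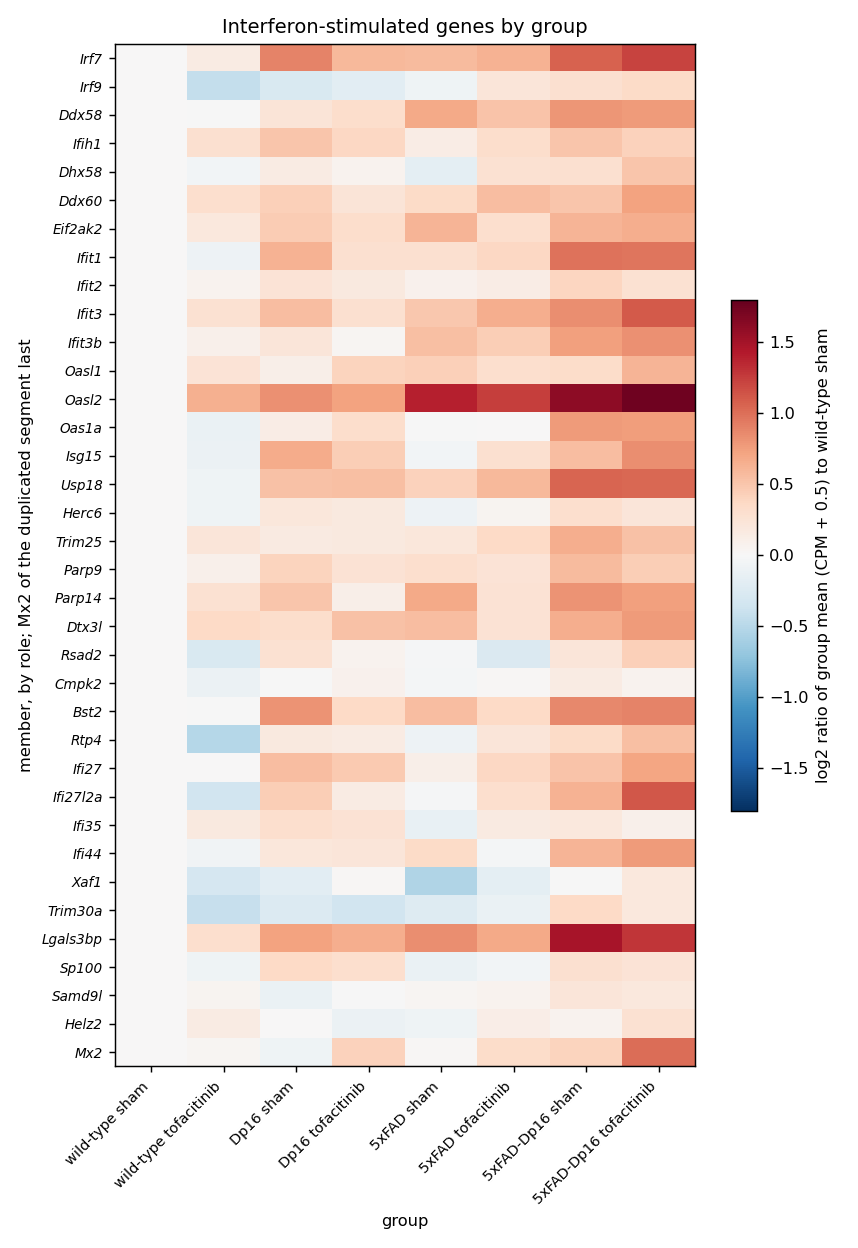
Group means of 35 members and Mx2 as log2 ratios of CPM + 0.5 to the wild-type sham mean, with members in rows ordered by role and groups in columns. The darkest red cells are Oasl2 at 1.61 in 5xFAD-Dp16 sham and 1.74 in 5xFAD-Dp16 tofacitinib, and both 5xFAD-Dp16 columns are red in most rows.

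Below, a gene is said to have been called, or to have risen or fallen, when its adjusted p was under 0.05 in edgeR's quasi-likelihood test over all 17632 genes. Log2 differences from this fit are followed by their SE in parentheses and by the adjusted p. Counts called by DESeq2 or limma-voom are added without their shares of all genes, so they have no background beside them. The 2 average comparisons set all 15 duplication carriers against 19 non-carriers, weighting groups equally, and likewise all 16 5xFAD carriers against 18 others.

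Both transcription factors of the list were called in an average comparison. Irf7 (ENSMUSG00000025498.15, chromosome 7, 141262706 to 141266481) drives the amplifying phase of the response and is itself an interferon target. In sham mice Irf7 stood at 2.37, 1.97, 2.79, 3.36 and 2.16 CPM in wild-type, 4.76, 4.61 and 6.02 in Dp16, 5.15, 4.25, 2.84 and 3.68 in 5xFAD and 3.10, 9.48 and 4.93 in 5xFAD-Dp16. Tofacitinib mice had Irf7 at 3.20, 3.88, 3.22, 2.56 and 1.47 CPM in wild-type, 3.72, 5.47, 4.10, 3.58 and 3.45 in Dp16, 4.24, 5.20, 4.27, 4.64 and 2.60 in 5xFAD and 10.6, 6.12, 4.30 and 5.00 in 5xFAD-Dp16. Dp16 sham mice all lay above wild-type sham mice, and 5xFAD-Dp16 tofacitinib mice all above wild-type tofacitinib mice, while the first 5xFAD-Dp16 sham female lay among the wild-type values. Irf7 rose with the duplication on average, by a log2 difference of 0.60 (SE 0.15, edgeR adjusted p = 0.0193). Without Dp16 sham 3 this was 0.51 (adjusted p = 0.0950), and without 5xFAD-Dp16 sham 2 0.51 (adjusted p = 0.0541). For 5xFAD on average it was 0.52 (SE 0.14, adjusted p = 0.0779).

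Irf9 (ENSMUSG00000002325.15, chromosome 14, 55603571 to 55610030) encodes the DNA-binding part of the complex that includes Stat2. In sham mice Irf9 stood at 8.19, 6.99, 7.70, 5.58 and 9.08 CPM in wild-type, 6.38, 7.09 and 4.98 in Dp16, 9.52, 7.37, 6.26 and 5.17 in 5xFAD and 9.27, 12.4 and 6.15 in 5xFAD-Dp16. With the drug Irf9 stood at 4.86, 4.07, 7.0, 6.65 and 4.77 CPM in wild-type, 6.72, 7.64, 6.91, 6.47 and 5.02 in Dp16, 10.8, 11.7, 8.45, 6.54 and 6.50 in 5xFAD and 13.2, 9.44, 7.91 and 7.92 in 5xFAD-Dp16. Unlike for Irf7, the Dp16 mice overlapped the wild-type mice in both treatments, and every value above the highest wild-type one, 9.08 CPM, was that of a female with 5xFAD. Irf9 rose with 5xFAD on average, by 0.43 (SE 0.10, edgeR adjusted p = 0.0456), and the average duplication difference was 0.03. This call sat at the threshold and was kept in 10 of the 34 fits that each left out 1 mouse. Without wild-type sham 2 and 5xFAD tofacitinib 2 the difference was 0.40 (adjusted p = 0.0560).

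Among the sensors of RNA, only Ddx58 was called in an average comparison. Ddx58 (ENSMUSG00000040296.15, chromosome 4, 40203773 to 40239828) encodes RIG-I, which detects uncapped viral RNA. In sham mice Ddx58 stood at 4.10, 1.59, 4.22, 1.8 and 2.97 CPM in wild-type, 5.60, 2.42 and 2.55 in Dp16, 6.28, 5.44, 3.18 and 5.07 in 5xFAD and 4.75, 6.28 and 5.36 in 5xFAD-Dp16. Under tofacitinib the values of Ddx58 were 1.76, 3.27, 3.17, 4.21 and 2.14 CPM in wild-type, 3.84, 3.55, 3.81, 3.81 and 3.80 in Dp16, 5.41, 4.34, 4.77, 4.02 and 3.54 in 5xFAD and 7.18, 5.34, 4.14 and 4.69 in 5xFAD-Dp16. All 5xFAD-Dp16 sham mice lay above all wild-type sham mice, and under tofacitinib only the lowest 5xFAD-Dp16 mouse fell below the highest wild-type mouse. Ddx58 rose with 5xFAD on average, by 0.63 (SE 0.14, edgeR adjusted p = 0.0381), a call kept in 18 of 34 fits without 1 mouse, and its average duplication difference was 0.22. The other sensors, Ifih1 (MDA5), Dhx58 (LGP2), Ddx60 and the translation-blocking kinase Eif2ak2 (PKR), were not called, although all 5 sensors had a difference above 0 in both average comparisons, with medians of 0.25 for the duplication and 0.32 for 5xFAD.

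The Ifit genes encode proteins that bind viral RNA ends and stop its translation, and they form a cluster on chromosome 19. Ifit3 (ENSMUSG00000074896.3, chromosome 19, 34583531 to 34588731) was the most abundant of them per length. In sham mice Ifit3 stood at 9.38, 6.74, 9.49, 4.20 and 9.35 CPM in wild-type, 9.80, 12.6 and 13 in Dp16, 12.9, 13.9, 7.53 and 10.3 in 5xFAD and 10.5, 21.9 and 10.6 in 5xFAD-Dp16. Tofacitinib mice had Ifit3 at 9.02, 11.3, 10.5, 9.83 and 7.27 CPM in wild-type, 11.4, 7.46, 10.4, 9.36 and 9.76 in Dp16, 17, 16.6, 10.6, 9.63 and 9.09 in 5xFAD and 29.3, 14.4, 14.3 and 11.4 in 5xFAD-Dp16. In both treatments the 5xFAD-Dp16 mice lay above all wild-type mice, and the female at 29.3 CPM exceeded the next mouse of its group at 14.4. Ifit3 was not called, with 0.76 (SE 0.26, edgeR adjusted p = 0.237) in sham and 0.79 (SE 0.24, adjusted p = 0.235) in tofacitinib mice for 5xFAD-Dp16 against wild-type, and 0.50 (SE 0.13, adjusted p = 0.0620) for 5xFAD on average.

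Ifit3b (ENSMUSG00000062488.9, chromosome 19, 34607970 to 34613401) is a close copy of Ifit3. In sham mice Ifit3b stood at 4.69, 3.69, 8.50, 4.32 and 3.84 CPM in wild-type, 5.32, 6.41 and 6.02 in Dp16, 10.5, 8.51, 5.53 and 5.36 in 5xFAD and 6.59, 11.7 and 7.80 in 5xFAD-Dp16. With the drug Ifit3b stood at 6.35, 5.55, 6.66, 4.43 and 3.79 CPM in wild-type, 5.82, 4.99, 5.04, 4.74 and 5.20 in Dp16, 9.46, 8.77, 4.42, 6.39 and 5.73 in 5xFAD and 13.4, 8.19, 6.00 and 9.49 in 5xFAD-Dp16. The groups overlapped in sham mice through the third wild-type mouse, and the highest values were again 2 females of 5xFAD-Dp16. Ifit3b rose with 5xFAD on average, by 0.59 (SE 0.13, edgeR adjusted p = 0.0346), kept in 23 of 34 fits without 1 mouse. Ifit3 and Ifit3b shared 31.7% and 27.4% of their 100-base words, so reads may have been divided between them, and their separate levels are uncertain. Ifit1, not called, was the member with the smallest p for sex, described below.

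Oasl2 (ENSMUSG00000029561.17, chromosome 5, 114896936 to 114912234), an oligoadenylate synthetase-like protein with ubiquitin-like domains, had the largest average 5xFAD difference of the 35 members. In sham mice Oasl2 stood at 3.20, 1.21, 1.68, 1.62 and 1.95 CPM in wild-type, 5.32, 3.15 and 2.95 in Dp16, 7.60, 7.54, 3.62 and 4.92 in 5xFAD and 4.52, 13.2 and 3.05 in 5xFAD-Dp16. Under tofacitinib the values of Oasl2 were 2.46, 4.32, 4.44, 2.78 and 2.38 CPM in wild-type, 4.74, 2.95, 4.68, 2.25 and 3.04 in Dp16, 8.92, 5.33, 4.77, 4.38 and 2.89 in 5xFAD and 10.7, 7.57, 5.36 and 6.96 in 5xFAD-Dp16. All 5xFAD sham mice lay above all wild-type sham mice, and all 5xFAD-Dp16 tofacitinib mice above all wild-type tofacitinib mice, whereas the male of 5xFAD-Dp16 sham lay just inside the wild-type range. Oasl2 rose in 5xFAD-Dp16 against wild-type sham by 1.60 (SE 0.34, edgeR adjusted p = 0.0177) and with 5xFAD on average by 1.07 (SE 0.16, adjusted p = 0.000482). The average call was kept in all 34 fits without 1 mouse. The sham call rested on single mice, with 0.89 (adjusted p = 0.552) without 5xFAD-Dp16 sham 2 1.39 (adjusted p = 0.0994) without wild-type sham 2 and 1.37 (adjusted p = 0.0924) without both libraries that lay away from the others.

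The Isg15 system is a ubiquitin-like conjugation pathway. Isg15 (ENSMUSG00000035692.7, chromosome 4, 156199424 to 156200818) encodes the modifier. In sham mice Isg15 stood at 4.10, 3.50, 1.68, 1.5 and 0.703 CPM in wild-type, 4.42, 3.66 and 3.70 in Dp16, 3.65, 2.55, 1.03 and 1.59 in 5xFAD and 3.90, 4.34 and 2.54 in 5xFAD-Dp16. Tofacitinib mice had Isg15 at 2.51, 1.85, 2.78, 1.76 and 1.53 CPM in wild-type, 3.72, 2.95, 3.57, 3.18 and 3.04 in Dp16, 2.92, 4.79, 2.68, 1.91 and 2.24 in 5xFAD and 8.81, 2.80, 3.72 and 2.62 in 5xFAD-Dp16. Under tofacitinib all Dp16 mice lay above all wild-type mice, and the female at 8.81 CPM was far above the rest of its group. The average duplication difference of Isg15 was 0.56 (SE 0.17, edgeR adjusted p = 0.0748) and that for 5xFAD 0.19, neither called.

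Usp18 (ENSMUSG00000030107.10, chromosome 6, 121245906 to 121270917) removes Isg15 from its targets and dampens receptor signalling. In sham mice Usp18 stood at 0.475, 0.572, 0.745, 1.38 and 0.919 CPM in wild-type, 1.46, 1.29 and 1.45 in Dp16, 1.44, 1.70, 0.978 and 0.894 in 5xFAD and 1.18, 4.24 and 1.27 in 5xFAD-Dp16. With the drug Usp18 stood at 0.534, 0.493, 1.72, 0.852 and 0.122 CPM in wild-type, 0.900, 2.16, 2.28, 0.809 and 0.935 in Dp16, 2.73, 2.22, 0.348, 1.19 and 0.886 in 5xFAD and 3.30, 2.02, 1.43 and 2.02 in 5xFAD-Dp16. Every lesion group overlapped its wild-type control, and the highest mice were the same 2 females of 5xFAD-Dp16. The difference of Usp18 in 5xFAD-Dp16 against wild-type was 1.23 (SE 0.55, edgeR adjusted p = 0.312) in sham and 1.43 (SE 0.51, adjusted p = 0.401) in tofacitinib mice. Usp18 overlaps a non-coding gene on the opposite strand over 15715 bases. The ligases of the pathway, Herc6 and Trim25, were not called, and all 4 genes of the system were above 0 in both average comparisons.

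Parp9, Parp14 and Dtx3l encode ADP-ribosyltransferases and a partner ubiquitin ligase that strengthen interferon signalling. They lie on chromosome 16 outside the duplicated segment, as does Rtp4. In 5xFAD-Dp16 against wild-type sham mice the 3 differences lay between 0.57 and 0.85, and their average differences were 0.23 to 0.24 for the duplication and 0.24 to 0.45 for 5xFAD. None was called. Parp9 and Dtx3l overlap by 682 bases on opposite strands.

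Among the effectors, Bst2, Ifi27 and Lgals3bp were followed in full. Bst2 (ENSMUSG00000046718.8, chromosome 8, 71534255 to 71537456) encodes tetherin, which holds budding virus at the cell surface. In sham mice Bst2 stood at 3.80, 2.1, 2.92, 2.76 and 3.35 CPM in wild-type, 6.89, 5.74 and 4.11 in Dp16, 7.30, 5.44, 2.74 and 3.08 in 5xFAD and 5.69, 8.11 and 3.81 in 5xFAD-Dp16. Under tofacitinib the values of Bst2 were 4.70, 1.54, 2.83, 3.07 and 2.69 CPM in wild-type, 3.96, 3.91, 3.69, 4.74 and 3.56 in Dp16, 3.31, 5.65, 3.63, 3.50 and 3.66 in 5xFAD and 9.15, 5.03, 5.79 and 3.99 in 5xFAD-Dp16. All Dp16 sham mice lay above all wild-type sham mice, and 5xFAD-Dp16 sham mice did so by a hair, while the groups overlapped under tofacitinib. Bst2 was not called, with an average duplication difference of 0.47 (SE 0.14, edgeR adjusted p = 0.0825).

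Ifi27 (ENSMUSG00000064215.13, chromosome 12, 103434211 to 103440239) was called for the duplication. In sham mice Ifi27 stood at 16.5, 20.9, 17.1, 20.6 and 18.2 CPM in wild-type, 31.4, 26.1 and 25.8 in Dp16, 21.8, 21.0, 17.6 and 20.3 in 5xFAD and 23.5, 30.6 and 26.6 in 5xFAD-Dp16. Tofacitinib mice had Ifi27 at 26.9, 17, 16.5, 18.4 and 15.4 CPM in wild-type, 26.2, 22.8, 28.9, 30.6 and 22.6 in Dp16, 21.0, 31.9, 20.4, 24.7 and 23.3 in 5xFAD and 36.6, 28.8, 33.3 and 24.7 in 5xFAD-Dp16. Dp16 and 5xFAD-Dp16 sham mice lay above every wild-type and every 5xFAD sham mouse. Under tofacitinib a single wild-type female at 26.9 CPM and the 5xFAD mice bridged the gap. Ifi27 rose with the duplication on average by 0.42 (SE 0.07, edgeR adjusted p = 0.000657), in each of the 34 fits without 1 mouse, and in 5xFAD-Dp16 against wild-type under tofacitinib by 0.70 (SE 0.14, adjusted p = 0.0110). The latter call was lost without 5xFAD-Dp16 tofacitinib 1 (0.63, adjusted p = 0.0669), without 5xFAD-Dp16 tofacitinib 3 (0.63, adjusted p = 0.0754) or without wild-type tofacitinib 2 (0.65, adjusted p = 0.0569). For 5xFAD on average the difference was 0.18 (SE 0.07, adjusted p = 0.185).

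Lgals3bp (ENSMUSG00000033880.11, chromosome 11, 118392751 to 118402092) was the one member called for both lesions. In sham mice Lgals3bp stood at 16.3, 13.7, 11.9, 8.28 and 14.4 CPM in wild-type, 26.4, 17.3 and 21.2 in Dp16, 27.2, 28.4, 19.9 and 18.1 in 5xFAD and 25.1, 58.9 and 27.0 in 5xFAD-Dp16. With the drug Lgals3bp stood at 12.3, 14.1, 22.4, 17.6 and 14.1 CPM in wild-type, 22.7, 21.2, 24.2, 15.4 and 19.3 in Dp16, 27.8, 28.4, 18.4, 16.7 and 13.3 in 5xFAD and 43.4, 31.5, 26.2 and 28.2 in 5xFAD-Dp16. Each of the 3 lesion groups lay above wild-type without overlap among sham mice, and 5xFAD-Dp16 did so under tofacitinib. Lgals3bp rose in 5xFAD-Dp16 against wild-type sham by 1.42 (SE 0.24, edgeR adjusted p = 0.00132), with the duplication on average by 0.51 (SE 0.12, adjusted p = 0.0152) and with 5xFAD on average by 0.66 (SE 0.12, adjusted p = 0.00496). Without 5xFAD-Dp16 sham 2, the mouse at 58.9 CPM, the first was 1.00 (adjusted p = 0.0949). Without Dp16 sham 3 the duplication difference was 0.47 (adjusted p = 0.0547), and the 5xFAD call was kept in all 34 fits without 1 mouse.

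**Figure D3:**
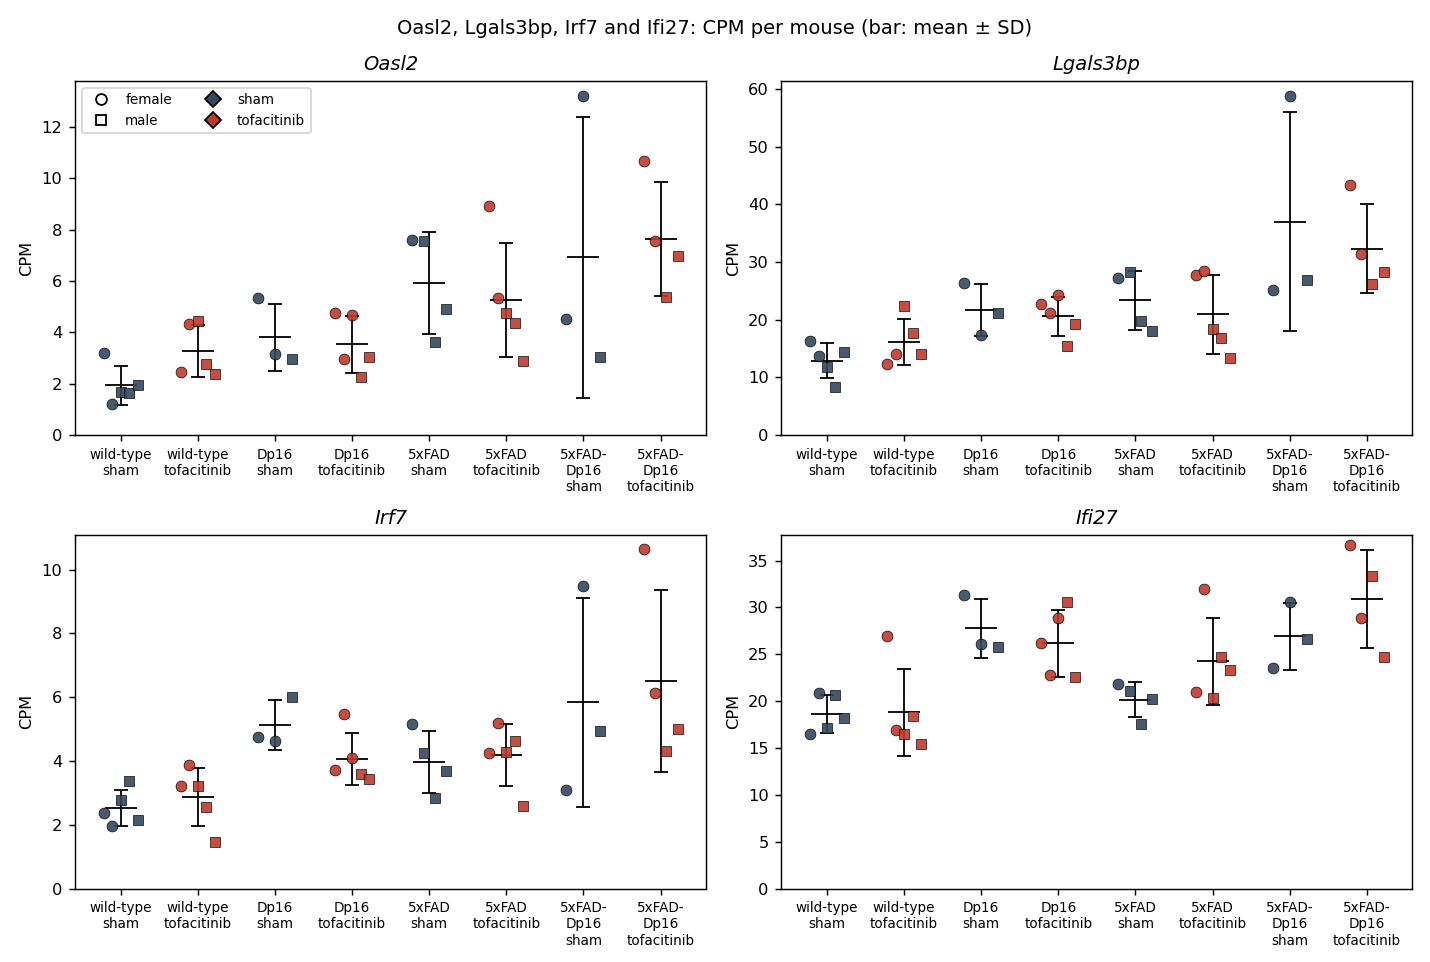
CPM of Oasl2, Lgals3bp, Irf7 and Ifi27 in each mouse of the 8 groups, with bars for mean ± SD and symbols for sex and treatment. Ifi27 and Irf7 stand high in Dp16 sham mice, at 25.8 to 31.4 and 4.61 to 6.02 CPM, and Oasl2 in 5xFAD sham mice, at 3.62 to 7.60.

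The rest of the effectors were not called. Of the 14 effectors, 12 were above 0 for the duplication and 11 for 5xFAD, with medians of 0.38 and 0.18. Xaf1, a pro-apoptotic protein, had a difference of -0.60 (SE 0.23, edgeR adjusted p = 0.116) in 5xFAD against wild-type sham mice, the lowest of the 35 members there.

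Mx1 and Mx2, dynamin-like GTPases that block viruses, lie in the duplicated segment and are annotated as polymorphic pseudogenes. Mx2 (ENSMUSG00000023341.15, chromosome 16, 97535308 to 97560900) had few reads in each mouse. In sham mice Mx2 stood at 0.297, 0.572, 0.186, 0.900 and 0.486 CPM in wild-type, 0.392, 0.450 and 0.463 in Dp16, 0.479, 0.340, 0.245 and 0.944 in 5xFAD and 0.753, 1.05 and 0.611 in 5xFAD-Dp16. Under tofacitinib the values of Mx2 were 1.01, 0.247, 0.611, 0.682 and 0 CPM in wild-type, 0.720, 1.26, 0.703, 0.809 and 0.584 in Dp16, 1.41, 0.633, 0.298, 0.824 and 0.531 in 5xFAD and 2.44, 1.19, 0.690 and 1.62 in 5xFAD-Dp16. In Mx2 each lesion group overlapped the wild-type mice of its treatment, with the highest value in the first female of 5xFAD-Dp16 tofacitinib. The Dp16 sham mice lay below all 5xFAD-Dp16 sham and all Dp16 tofacitinib mice. The average duplication difference of Mx2 was 0.44 (SE 0.31, edgeR adjusted p = 0.569), and 5xFAD-Dp16 against wild-type under tofacitinib gave 1.47 (SE 0.55, adjusted p = 0.471). Mx1, below the minimum, had between 0 and 1.34 CPM, and its average duplication difference was 1.72 (SE 0.52, adjusted p = 0.0820).

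The single lesions were first set against wild-type. With the duplication alone, Irf7, Ifi27, Bst2, Lgals3bp, Ifih1, Ifit3 and Sp100 had no overlap between Dp16 and wild-type sham mice, 7 of 35 members against 2.77% of all genes tested. No member was called in edgeR, DESeq2 or limma-voom, against 0.193% of all genes called higher in edgeR. At an unadjusted p under 0.05, 7 members were higher, against 4.00% of all genes. The median difference over the members was 0.29, with 28 above 0 (50.2% of all genes). Under tofacitinib the median of Dp16 against wild-type was 0.16, 26 members were above 0 (49.5% of all genes), none was called (0.216% of all genes called higher), 2 were higher at an unadjusted p under 0.05 (3.88% of all genes), and Isg15 alone did not overlap (0.771%).

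5xFAD mice were compared with wild-type mice in the same way. Among sham mice none of the 35 was called, against 0.00567% of all genes called higher, and 10 were higher at an unadjusted p under 0.05, against 11% of all genes. The 10 were 28.6% of the members, and members lower at that level are not counted here. The median was 0.22, with 25 members above 0 (51.5% of all genes), and Oasl2, Parp14 and Lgals3bp did not overlap (4.94% of all genes). Of the 14 effectors 7 were above 0, with a median of -0.01. DESeq2 called 4 members and limma-voom 4 here. Under tofacitinib the median was 0.22, 29 members were above 0 (48.3% of all genes), none was called (0.0113%), 6 were higher at an unadjusted p under 0.05 (3.04%), and none was free of overlap (0.397%). The comparisons of a treatment share its wild-type mice.

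With both lesions nearly all members had a difference above 0 from wild-type. In sham mice 34 of 35 were above 0 (50.8% of all genes), the exception being Xaf1, with a median of 0.61 against 0.01 over all genes. Oasl2 and Lgals3bp were called, 2 of 35 members, against 0.312% of all genes called higher. At an unadjusted p under 0.05, 17 members were higher (7.21% of all genes), and 11 did not overlap (5.76%). Without wild-type sham 2 and 5xFAD tofacitinib 2 edgeR called 1 member in sham mice and 2 under tofacitinib. Under tofacitinib, in other mice, 34 were above 0 (49.2% of all genes), the exception being Ifi35, with a median of 0.70. Ifi27 was called (0.216% of all genes called higher), 19 were higher at an unadjusted p under 0.05 (2.97%), and 9 did not overlap (1.19%). DESeq2 called 7 members here and limma-voom 3.

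The comparisons of 5xFAD-Dp16 with wild-type in sham and in tofacitinib mice share no library. Both come from 1 fit with a common sex term and a shared estimate of the spread, so they are not independent. Of the 35 members, 33 were above 0 in both, all but Ifi35 and Xaf1. At an unadjusted p under 0.05, 11 were higher in both: Irf7, Ddx58, Ifit1, Ifit3, Ifit3b, Oasl2, Usp18, Dtx3l, Bst2, Ifi27 and Lgals3bp. The shares of all genes above 0 or higher in both are not given here. Across the members the differences of the sham and tofacitinib comparisons had a Spearman rho of 0.65 and a Pearson r of 0.60, as a description over 35 genes that share libraries and are not replicates.

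5xFAD-Dp16 mice were also set against each single lesion. 5xFAD-Dp16 against 5xFAD had medians of 0.28 in sham and 0.35 under tofacitinib, with 32 and 34 members above 0 (51.2% and 50.6% of all genes), and edgeR called no member (0.102% and 0.199% of all genes called higher), with 2 and 9 higher at an unadjusted p under 0.05 (2.16% and 3.78% of all genes). Limma-voom called 3 of them under tofacitinib. 5xFAD-Dp16 against Dp16 had medians of 0.21 and 0.51, with 30 and 32 members above 0 (49.5% and 49.4% of all genes), and again none called (0.00567% of all genes called higher in each), with 4 and 10 higher at an unadjusted p under 0.05 (3.06% and 2.40%). Members without overlap numbered 4 in sham mice, against 10.1% of all genes, and 6 under tofacitinib, against 1.19%.

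The lesions were then averaged over all groups, without a test of one lesion against the other. For the duplication Irf7, Ifi27 and Lgals3bp were called, 3 of 35, against 1.16% of all genes called higher. For 5xFAD Irf9, Ddx58, Ifit3b, Oasl2 and Lgals3bp were called, 5 of 35, against 0.204%. At an unadjusted p under 0.05, 19 members were higher with the duplication (6.49% of all genes) and 19 with 5xFAD (8.46%). Medians were 0.28 and 0.35, with 32 members above 0 in each (51.3% and 50.7% of all genes). These averages rest on the same libraries, so their overlap is not a separate result. The interaction of the lesions, that is whether their joint difference departs from the sum on the log2 scale, had a median of 0.06 with 20 members above 0 (51.8% of all genes), no member was called in edgeR (0.00567% of all genes called higher), and none was higher at an unadjusted p under 0.05 (1.95%).

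**Figure D4:**
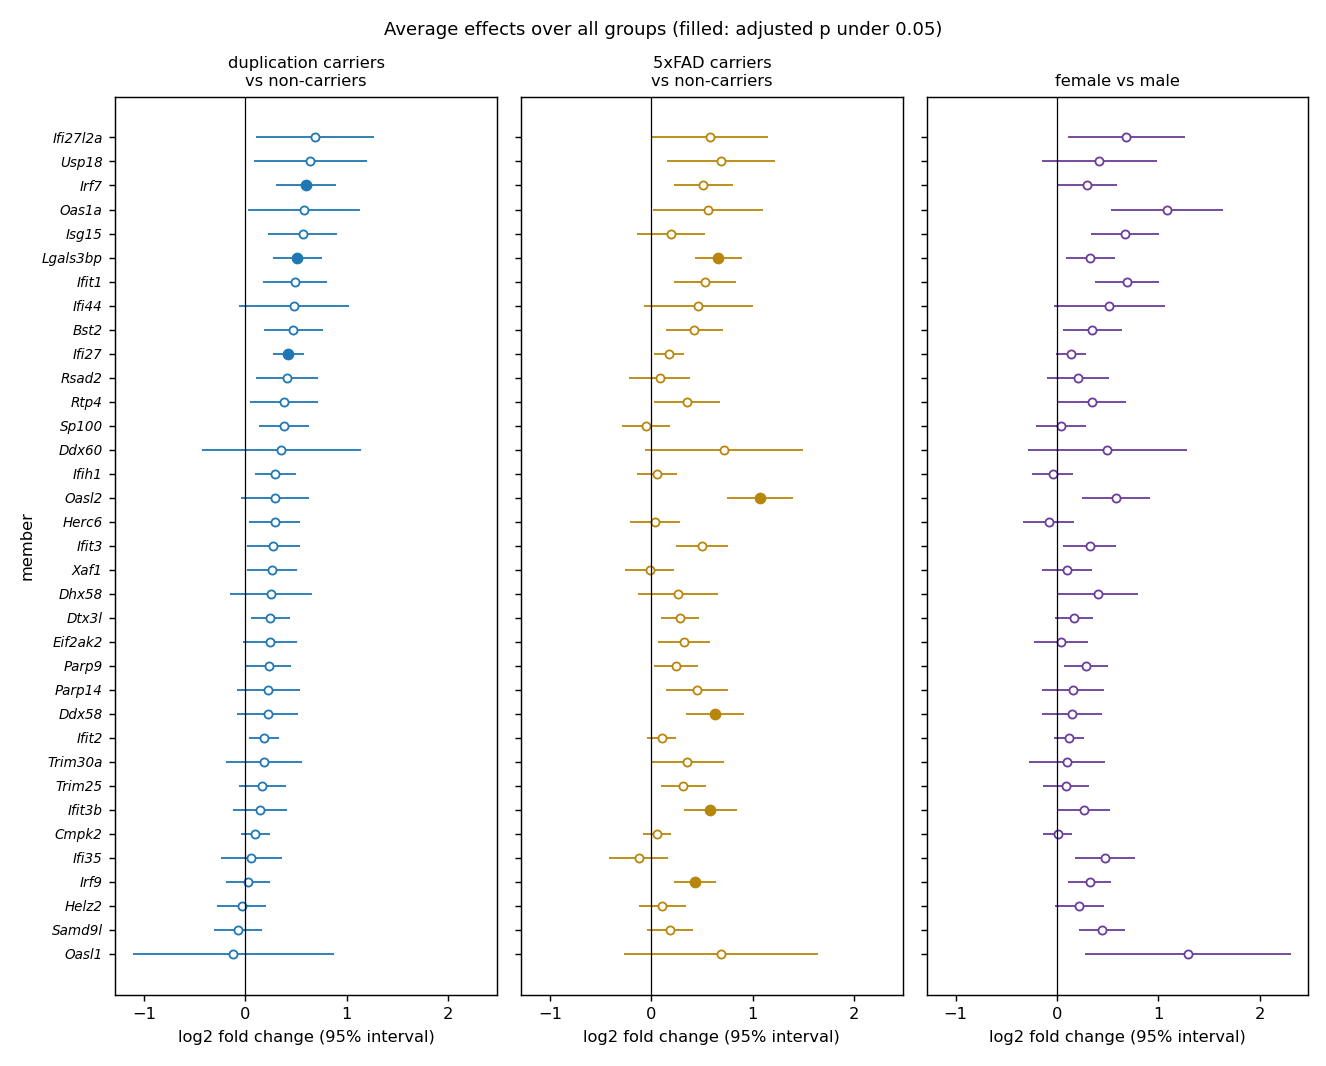
Log2 differences with 95% intervals of 35 members for duplication carriers, 5xFAD carriers and females, each averaged over all groups, with filled points for an edgeR adjusted p under 0.05. Filled points are Irf7, Lgals3bp and Ifi27 on the left, Oasl2, Lgals3bp, Ddx58, Ifit3b and Irf9 in the middle, and none on the right.

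Markers of microglia moved with 5xFAD beside these genes. Of 8 markers of plaque-associated microglia, all 8 were above 0 in 5xFAD carriers on average (50.7% of all genes). Cst7, Clec7a and Itgax were called, against 0.204% of all genes called higher. The summed level of the 8 was 121.6 to 143 CPM in wild-type sham, 115.4 to 137.2 in Dp16 sham, 135.8 to 183.7 in 5xFAD sham and 134.2 to 166.6 in 5xFAD-Dp16 sham. Under tofacitinib it was 111.4 to 160.3, 116.4 to 160.2, 132.9 to 237.7 and 137.3 to 191.2 in the same order. Of 8 general microglia markers Csf1r was called higher with 5xFAD (0.204% of all genes), and P2ry12 and Sall1 lower with the duplication. The share of all genes called lower is not given here. Differences in markers of astrocytes, endothelium and neurons are not described here. The part of microglia in the members' differences was not tested.

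Among 5xFAD carriers higher scores mostly went with more Cst7, a cystatin switched on in plaque microglia, but not in every mouse. The 5xFAD mice scoring 2.14 to 2.32 had 7.31 to 14.2 CPM of Cst7, and those scoring 1.65 to 1.81 had 0.0497 to 8.50. The 5xFAD-Dp16 mice scoring 2.38 to 2.91 had 6.38 to 10.5 CPM, and those scoring 2.08 to 2.19 had 0.404 to 5.59. This relation was not tested, and sex was not held apart in it. Among 5xFAD carriers females had a mean score of 2.41 and a median Cst7 of 9.20 CPM, males 1.91 and 3.91 CPM. The 5xFAD sham male with the score of 1.67 had 0.0497 CPM, and a 5xFAD tofacitinib male at 1.78 had 8.50 CPM. The last 5xFAD-Dp16 tofacitinib male scored 2.18 with 0.404 CPM of Cst7. The 2 mice with the highest scores had 9.20 and 10.5 CPM, and 5xFAD tofacitinib 2, at 14.2 CPM, scored 2.32.

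Markers of immune cells from blood were scarce. The 6 lymphocyte markers summed to between 0 and 1.74 CPM, 5 of them with a mean under 0.3 CPM, and the 4 peripheral myeloid markers to between 0.0487 and 14.4 CPM, the highest in a 5xFAD-Dp16 sham mouse whose score was the lowest of its group, 2.08. Of 3 markers of the interferon-producing plasmacytoid dendritic cells Ccr9 and Klk1 each had a mean under 0.3 CPM, while the list summed to between 181.2 and 423.3 CPM through Tcf4, a transcription factor that neurons also express.

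Most members had a difference above 0 for female against male, and none was called. The score of the 7 females with 5xFAD was 2.08 to 2.91 with a mean of 2.41, and that of the 9 males 1.65 to 2.19 with a mean of 1.91. Without 5xFAD the 9 females measured 1.62 to 2.12 with a mean of 1.93 and the 9 males 1.30 to 1.93 with a mean of 1.68. Over all groups 33 of 35 members had a difference above 0 for female against male (51.3% of all genes), with a median of 0.30. No member was called (0.0284% of all genes called higher), and 16 were higher at an unadjusted p under 0.05, against 2.44% of all genes. DESeq2 called 3. Ifit1 had 0.69 (SE 0.15, edgeR adjusted p = 0.102), Isg15 0.67 (SE 0.17, adjusted p = 0.215) and Oas1a 1.09 (SE 0.27, adjusted p = 0.232). With terms for replicate number added to the fit, the median for sex over the members was 0.0113. Females hold the low replicate numbers in every group, so sex and number cannot be fully told apart.

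Irf9 separated the sexes among 5xFAD mice. Its lowest, median and highest values were 9.27, 10.8 and 13.2 CPM in the 7 females, and 5.17, 6.54 and 8.45 in the 9 males, with no overlap. Of all 17632 genes 3 were higher in 5xFAD females without overlap (0.0170%), of which 2 lie on a sex chromosome and Irf9 is the third, a pattern chosen after its values were seen. Without 5xFAD the females had 4.07, 6.91 and 8.19 CPM and the males 4.77, 6.47 and 9.08, and the sexes overlapped fully. The interaction of 5xFAD and sex for Irf9 was 0.60 (SE 0.18, unadjusted p = 0.0029, edgeR adjusted p = 1.00).

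Other members overlapped between the sexes in 5xFAD mice. Lgals3bp ran from 25.1 to 58.9 CPM in females with a median of 28.4, and from 13.3 to 28.4 in males with a median of 19.9. Ifit3 ran from 10.5 to 29.3 with a median of 16.6 in females and from 7.53 to 14.3 with a median of 10.6 in males. Oasl2 had medians of 7.60 and 4.77. For the interaction of 5xFAD and sex 30 of 35 members were above 0 (48.7% of all genes), 7 were higher at an unadjusted p under 0.05 (1.75%), and edgeR called none (0.00%). A difference between the sexes that depends on 5xFAD was thus not called for any member.

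Plaque markers overlapped between the sexes among 5xFAD mice, and their difference by sex within these mice had no test of its own. For these markers the tests of sex over all groups and of its interaction with 5xFAD are not reported here. Cst7 had a median of 9.20 CPM in females, between 1.04 and 14.2, and 3.91 in males, between 0.0497 and 10.3. Clec7a, a receptor of plaque microglia, had medians of 5.03 and 3.13. Tmem119, from the list of general microglia markers, had medians of 27.9 and 28.2. The part of these in the sex difference of the members was not tested. The groups were unequal in sex, with 1 female of 4 in 5xFAD sham and 2 of 3 in 5xFAD-Dp16 sham, and every test of a lesion held a term for sex.

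Tofacitinib, an inhibitor of the kinases below the interferon receptor, was followed by no called change of any member. The drug effect was tested within each genotype and as the mean of the 4. Mean scores under drug and sham were 1.67 and 1.63 in wild-type, 1.97 and 2.04 in Dp16, 1.97 and 1.93 in 5xFAD, and 2.41 and 2.31 in 5xFAD-Dp16, each difference within the SD of its groups. The medians of the members' differences were 0.01, -0.07, 0.06 and 0.12 in that order, and 0.01 for the mean. No gene of the 17632 was called in edgeR for the drug (0.00%), DESeq2 called no member, and limma-voom called 1, in 5xFAD.

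Single members are given for the mean over genotypes and where an unadjusted p was under 0.05. For the mean over genotypes Irf7 had a difference of 0.01 with a 95% interval of -0.28 to 0.30, Isg15 0.13 (-0.21 to 0.47), Ifit3 0.11 (-0.15 to 0.37), Oasl2 0.18 (-0.15 to 0.50), Lgals3bp -0.02 (-0.25 to 0.22) and Ifi27 0.10 (-0.05 to 0.25). At an unadjusted p under 0.05 no scored member differed in this mean or within Dp16, 5xFAD or 5xFAD-Dp16. Zbp1, below the minimum and so not scored, had a difference below 0 in the mean and is described at the end. Of all genes 2.13% were higher and 1.19% lower at that level in the mean, 1.04% and 0.987% in Dp16, 7.97% and 6.73% in 5xFAD, and 0.924% and 0.902% in 5xFAD-Dp16. In wild-type mice Oasl2 and Dtx3l were higher and Irf9 and Rtp4 lower at that level, against 4.44% and 2.80% of all genes. Oasl2 was there 0.78 higher (edgeR adjusted p = 0.678) and Irf9 0.44 lower, that is -0.44 (adjusted p = 0.681).

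The intervals set how large a fall could have gone unseen. For the mean over genotypes they excluded a 2-fold fall in 35 of 35 members and a 1.5-fold fall in 34. Within a genotype they excluded a 2-fold fall in 29 members in wild-type, 28 in Dp16, 30 in 5xFAD and 32 in 5xFAD-Dp16, and a 1.5-fold fall in 21, 15, 18 and 23 of the 35. The differences themselves ran up to 1.06 for Oasl1 in wild-type and down to -0.72 for Ifi44 in 5xFAD mice, both low members with wide intervals. A drug effect that differs from that in wild-type was called for no member in Dp16, 5xFAD or 5xFAD-Dp16 (edgeR, 0.00% of all genes called higher in each). For Dp16 and 5xFAD-Dp16 no member differed at an unadjusted p under 0.05, where 1.66% and 3.03% of all genes were higher and 2.19% and 3.62% lower. For 5xFAD Irf9, Rtp4 and Xaf1 were higher and Oasl2 and Dtx3l lower at that level, 3 and 2 members, against 10% and 10.2% of all genes, and limma-voom called 2. The labels give no time between the last dose and collection.

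**Figure D5:**
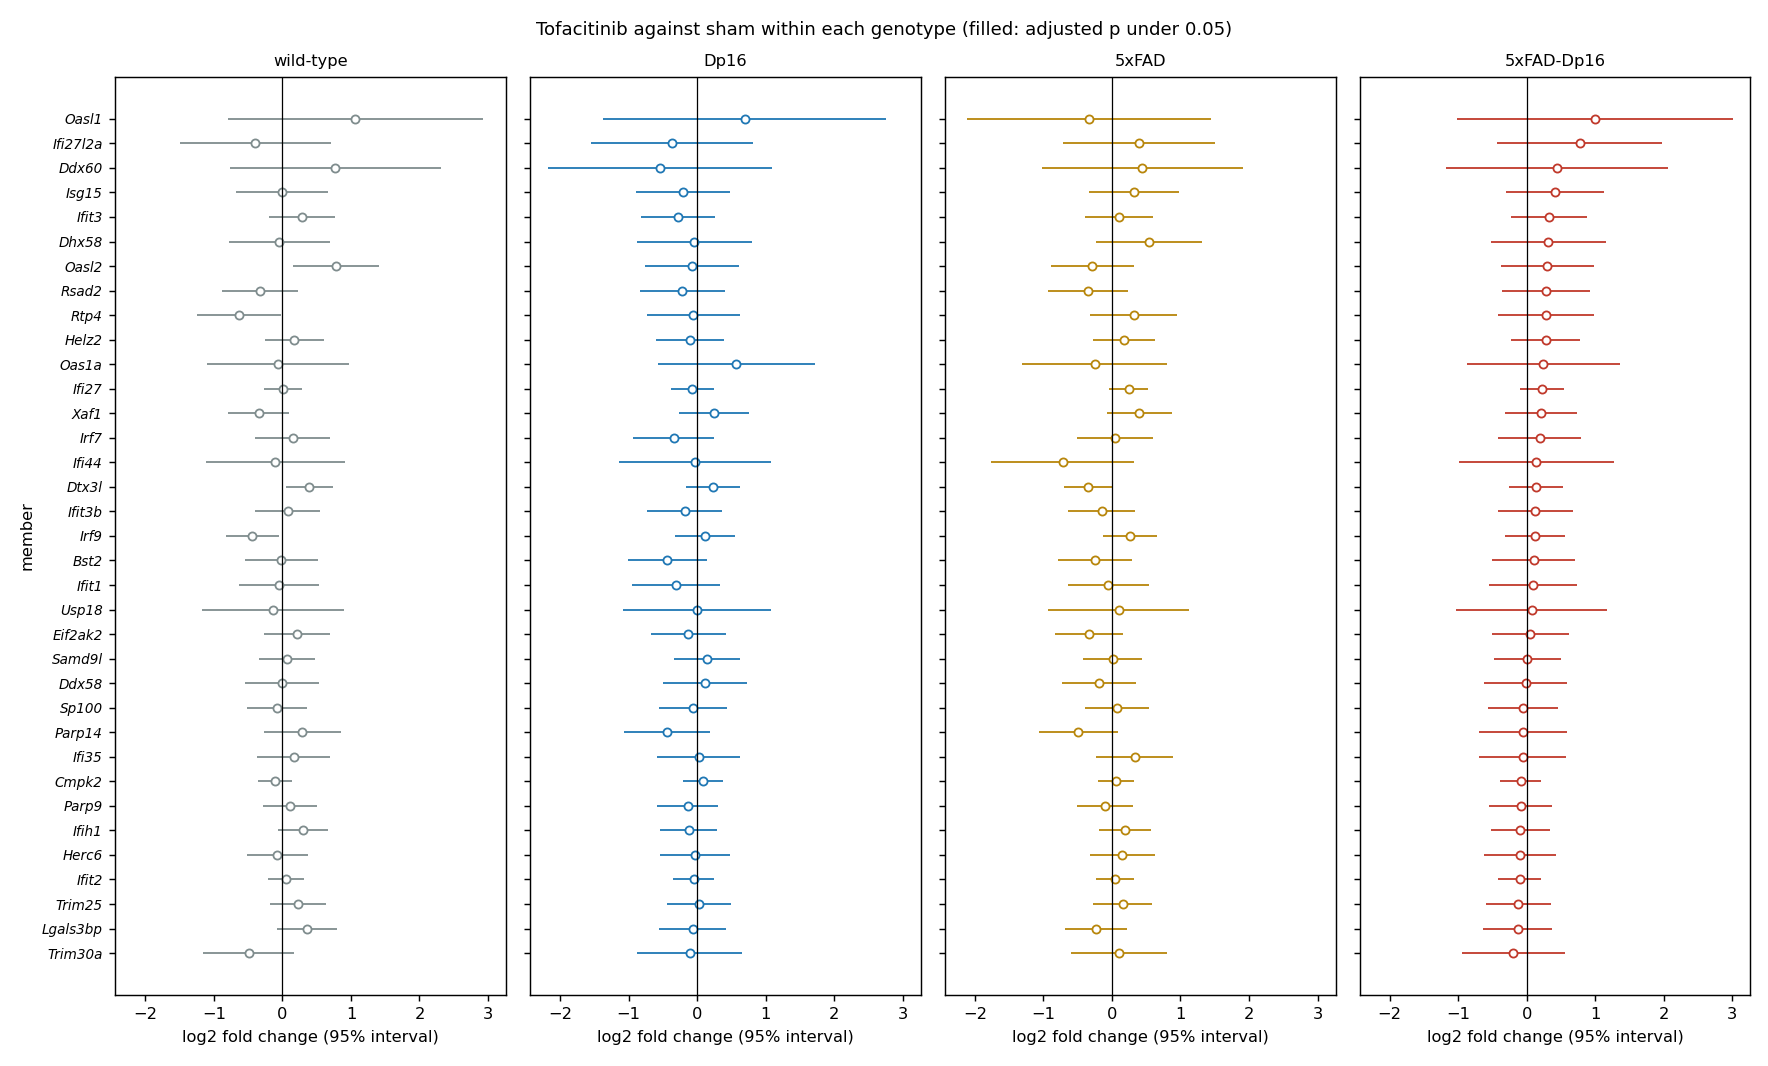
Log2 differences between tofacitinib and sham with 95% intervals for 35 members in each genotype, where a filled point would mark an edgeR adjusted p under 0.05 and none is filled. Points lie on both sides of 0 in each panel, with medians of 0.01, -0.07, 0.06 and 0.12, and the widest intervals belong to low members such as Oasl1 and Ddx60.

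The genes upstream of the members were examined next. Of 20 type I interferon genes listed, none had enough counts to be tested, 3 had a count in any library, each in 1 library, and the highest level was 0.141 CPM. The receptor chains of the duplicated segment followed its dosage. Ifnar1 measured 48.7 to 65.5 CPM in the 15 duplication carriers and 28.8 to 41.5 in the other 19, without overlap, and rose by 0.67 (SE 0.04, edgeR adjusted p = 1.21e-12). Ifnar2 measured 20.02 to 26.9 and 11.8 to 21.6 CPM and rose by 0.63 (SE 0.07, adjusted p = 5.17e-08). With 5xFAD Ifnar1 had a difference of 0.11 (adjusted p = 0.168).

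Below the receptor, Stat2 had an average difference of 0.25 (edgeR adjusted p = 0.105) for 5xFAD. Of 14 signalling genes, 12 of them outside the segment, those outside were not called in either average.

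A second list of 83 other interferon-stimulated genes, not members, had 76 tested. In 5xFAD-Dp16 against wild-type sham mice 62 of the 76 were above 0 (50.8% of all genes), with a median of 0.28. Only B2m, the light chain of class I antigen presentation, was called there, against 0.312% of all genes called higher. At an unadjusted p under 0.05, 6 were higher and 2 lower, where 7.21% of all genes were higher. Under tofacitinib 66 were above 0 (49.2%), with a median of 0.36, and 14 were higher at that level (2.97%). For the duplication on average 64 were above 0 (51.3%) with a median of 0.18 and 19 higher (6.49%). For 5xFAD 57 were above 0 (50.7%) with a median of 0.13, 16 higher (8.46%) and 4 lower. The shares of all genes that were lower are not given here. B2m was also called for the duplication on average, with 131.6 to 217 CPM in carriers and 103.4 to 172.3 in the others. So was Psmb9, an immunoproteasome subunit, making 2 of the 76, against 1.16% of all genes called higher. Rnf213, a large ubiquitin ligase, was called for 5xFAD on average, 1 of the 76, against 0.204% of all genes called higher. These genes overlap with targets of interferon gamma.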

How the data were processed

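Poly-A RNA of 34 mouse cortices was read as paired ends of 150 bases, per the labels' protocols. The authors deposited whole-number counts per gene and the RPKM values made from them. The submitters' processing notes name HTSeq 0.6.1, SAMtools 1.5, HISAT2 2.1.0, FastQC 0.11.5 and bcl2fastq, with build GRCm38. The kit keeps strand, per the labels' protocols, but the strand setting of the counting is not given in the sources used here, so overlapping genes may share reads. Of the 6 5xFAD tofacitinib mice in the series text 5 were analysed here, and 3 of the 4 5xFAD-Dp16 sham mice. Library totals ran from 16029841 to 21388650 counts, and their number and the mice per group limit the precision.

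Counts were fitted with edgeR 4.0.16 in R 4.3.3, by a robust quasi-likelihood model of all 34 libraries with TMM scaling and terms for group and sex. filterByExpr kept 17632 genes, among them 40 of the 41 members. There were 23 comparisons. F-tests were two-sided, and p was adjusted by Benjamini-Hochberg over all genes of a comparison at 0.05. Each library is a mouse of its own. CPM values are TMM-scaled, and log2 CPM used a prior count of 2. RPKM values served to compare levels between genes. GENCODE M21 gave positions for 55144 of 55385 genes, and RefSeq gave the promoters. The fit was tested on simulated data.

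The members and lists were chosen with earlier results of these data known. Genes described in full were the members called in any comparison, with Irf7, Ifit3, Bst2, Isg15, Usp18, Mx1 and Mx2, and from other lists called members and the receptor genes and Stat2. Some items are not reported here. Alternatives were limma-voom (limma 3.58.1, weighted samples), DESeq2 1.42.0 and its size factors, scaling without segment genes, a minimum mean of 1 CPM, no filter on low counts, no sex term, a replicate block, only the groups compared, leaving out the 2 libraries that stand apart, and leaving out each mouse. A fit without robust estimation was added after seeing the data.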

Additional observations from a re-analysis of the deposited data

Results flagged for a closer look

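In 78 groups of a gene or the score and its mice 5 values stood apart from their group by Dixon's criterion. Chance alone gives about 1 in 20. Groups of 3 mice, Dp16 sham and 5xFAD-Dp16 sham, were not tested, so the high values of 5xFAD-Dp16 sham 2 were not checked this way. Ifit3 measured 29.3 CPM in 5xFAD-Dp16 tofacitinib 1, against 14.4 in the next mouse and 11.4 in the lowest. Ifit3b measured 8.50 CPM in wild-type sham 3, with the others between 3.69 and 4.69. Ddx58 measured 3.55 CPM in Dp16 tofacitinib 2, just below a tight group at 3.80 to 3.84. Bst2 measured 5.65 CPM in 5xFAD tofacitinib 2, with the others between 3.31 and 3.66, and this is a library that stands apart. Ifi27 measured 26.9 CPM in wild-type tofacitinib 1, with the others between 15.4 and 18.4.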

How the results depend on the processing

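No alternative reversed the direction of a called member. Medians of the members stayed above 0 in every alternative for each comparison of 2 genotypes and both average comparisons. The median for sex did so too, but it fell from 0.30 to 0.0113 with the replicate block. Drug medians lay near 0 and could change sign, that in 5xFAD-Dp16 from 0.12 to -0.07 without 5xFAD-Dp16 sham 1 and to -0.05 without 5xFAD-Dp16 tofacitinib 1. Counts of called members moved more, and they stand without the share of all genes called by each alternative. They are given in the order 5xFAD against wild-type sham (0 called), 5xFAD-Dp16 against wild-type sham (2) and under tofacitinib (1), duplication average (3), 5xFAD average (5) and sex (0). DESeq2 gave 4, 3, 7, 5, 2 and 3, but left adjusted p missing for all but 5 members in the 5xFAD average. Limma-voom gave 4, 4, 3, 11, 5 and 0, and also 1 for Dp16 against wild-type under tofacitinib, 3 for 5xFAD-Dp16 against 5xFAD under tofacitinib, 1 for the drug in 5xFAD and 2 for the drug in 5xFAD minus wild-type. Without the low-count filter the counts were 6, 6, 11, 6, 12 and 5, with 1 for Dp16 against wild-type sham, 1 and 4 for 5xFAD-Dp16 against Dp16 in sham and tofacitinib, and 1 for 5xFAD-Dp16 against 5xFAD under tofacitinib. At a mean of at least 1 CPM 5xFAD-Dp16 tofacitinib gave 3. Without robust estimation 5xFAD sham gave 1. Fits of only the groups compared gave 2, 0 and 0 for the first 3. Without wild-type sham 2 and 5xFAD tofacitinib 2 the counts of 5xFAD-Dp16 against wild-type were 1 in sham and 2 under tofacitinib. The cause of these shifts was not tested.

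Leaving out 1 mouse at a time gave 0 to 6 for 5xFAD sham (6 without wild-type sham 3, 1 without wild-type sham 5 or 5xFAD sham 3), 0 to 3 for 5xFAD-Dp16 sham (0 without 5xFAD-Dp16 sham 2, 1 without wild-type sham 2), 0 to 6 for 5xFAD-Dp16 tofacitinib (6 without wild-type tofacitinib 3, 0 without 5xFAD-Dp16 tofacitinib 1 or 3 or wild-type tofacitinib 2), 1 to 5 for the duplication (1 without Dp16 sham 3, 5 without wild-type tofacitinib 3 or 5xFAD tofacitinib 2), 2 to 6 for 5xFAD, 0 to 1 for sex, 0 to 1 for Dp16 tofacitinib (1 without wild-type tofacitinib 1) and 0 to 2 for the drug in 5xFAD minus wild-type (2 without wild-type tofacitinib 1, 1 without 5xFAD tofacitinib 1).

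Whether replicate numbers pair mice across groups could not be settled. In 98 same-numbered pairs the residuals, after the terms for group and sex, had a mean correlation of -0.0435, against 0.0106 in other pairs. Of the 34 libraries 0 correlated best with their own number. The sex term takes up part of any difference by number, so these values cannot exclude pairing. The replicate block gave 0 members for 5xFAD-Dp16 tofacitinib and 2 for the 5xFAD average, and a median of 0.0113 for sex (0.30 without the block), since females hold the low numbers in every group.

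Depth limits the lowest members, Oasl1 and Ddx60 at means of 0.36 and 0.41 CPM, which had the largest SEs of the 35 in both average comparisons.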

Other observations

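Zbp1, a sensor of Z-form nucleic acids that can start necroptosis, lay below the minimum of 0.3 CPM and was left out of the counts above, and it is named here after its values were seen. It had 0 CPM in all 5 Dp16 tofacitinib mice, between 0.0560 and 0.405 in Dp16 sham mice and between 0.101 and 1.39 in 5xFAD-Dp16 tofacitinib mice. Its average log2 difference was 1.93 (SE 0.58, edgeR adjusted p = 0.103) for 5xFAD and -1.33 (SE 0.58, adjusted p = 0.288) for the duplication, neither called, and each value rests on few reads and, through the group at 0, on the prior count of the fit. For tofacitinib against sham, as the mean of the 4 genotypes, it was -1.93 (SE 0.58, edgeR adjusted p = 0.939).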
